A study of Mus musculus with 10 samples.

Results

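Nuclear receptors are transcription factors that a small lipid-soluble ligand can switch on or off, and the 38 genes described here are the members of that family apart from the clock, immediate early and venous ones, chosen by symbol and found as 38 of the 55385 rows of the deposited gene table. RNA sequencing measured them in endothelial cells sorted from mouse lung. All mice were Tnfsf10 L/L: both alleles of the gene for TRAIL, a secreted and membrane-bound inducer of cell death, had loxP sites. The 5 libraries labelled EC-TRAIL KO, here called KO-labelled libraries, came from mice that also carried the Cdh5.Cre transgene (Tg/W), a tamoxifen-inducible iCreERT2 recombinase driven by the endothelial Cdh5 promoter, and the 5 control libraries from mice without it (W/W). The series' design text counts 4 Tg/W animals where the labels give 5 such libraries, so n = 5 in that group counts libraries and may not count mice. Per the labels, mice of both groups were 8 to 14 weeks old and tamoxifen was given at 1 mg per mouse per day for 5 or 10 days, with no statement of which length applies to which library. The design sets lung endothelium with induced loss of TRAIL against lung endothelium that keeps it. Nothing in the labels ties a library to a mouse of its own, and the p-values here therefore measure only library-to-library spread, which may be technical.

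A nuclear receptor has a DNA-binding domain with a pair of zinc fingers and a ligand-binding domain that recruits coactivators or corepressors. Steroid receptors such as estrogen receptor alpha (Esr1) bind DNA mainly as homodimers, while the thyroid hormone, retinoic acid, vitamin D, PPAR and LXR receptors pair with a retinoid X receptor. In endothelium, estrogen receptor alpha is known for raising nitric oxide synthesis, and the glucocorticoid receptor for limiting inflammatory genes. The estrogen receptor has a particular place in this design, because CreERT2 recombinases are fusions of Cre to a mutated ligand-binding domain of human estrogen receptor alpha, which tamoxifen's active metabolite opens. Tamoxifen is itself a ligand of estrogen receptors, and both groups' labels carry the same treatment.

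The first zinc finger is shown for 5 members because its P box, the stretch that reads the DNA half-site, separates estrogen receptors from the other classes. The lines run 5′ to 3′ on the coding strand, from the GENCODE transcripts of GRCm38, with the 15 bases of the P box codons in capitals.
Esr1: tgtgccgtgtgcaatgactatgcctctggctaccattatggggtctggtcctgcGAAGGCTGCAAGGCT
Esr2: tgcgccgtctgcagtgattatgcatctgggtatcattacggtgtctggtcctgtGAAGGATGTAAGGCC
Esrra: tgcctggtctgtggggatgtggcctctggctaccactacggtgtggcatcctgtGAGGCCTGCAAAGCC
Pgr: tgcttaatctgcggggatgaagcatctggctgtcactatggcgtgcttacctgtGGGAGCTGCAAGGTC
Rara: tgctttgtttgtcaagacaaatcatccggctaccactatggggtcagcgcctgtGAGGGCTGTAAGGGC
Of the 69 bases shown, Esr2 (chromosome 12) shares 81.2% with Esr1 (chromosome 10), Rara (chromosome 11) 68.1%, Esrra (chromosome 19) 63.8% and Pgr (chromosome 9) 59.4%. Among the 35 members in which this finger was found and compared, Esr2 alone codes for the same P box residues as Esr1. Nr3c1 was left out of the search and is not among the 35.

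The second stretch is the last 240 bases of the Esr1 coding sequence, coding bases 1561 to 1800, shown because they code for the end of the ligand-binding domain and the C-terminal F domain after it, and the ligand-binding domain is the part of the receptor that the transgene holds in human form. Capitals mark the codons of the coactivator-binding AF-2 core.
Esr1: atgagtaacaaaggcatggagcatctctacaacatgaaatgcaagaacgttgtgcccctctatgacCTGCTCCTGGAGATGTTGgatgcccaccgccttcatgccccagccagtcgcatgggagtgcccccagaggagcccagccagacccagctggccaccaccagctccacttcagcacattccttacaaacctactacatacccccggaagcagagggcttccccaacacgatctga
No stretch of 50 bases in the annotated mouse Esr1 transcripts is shared with another annotated mouse gene, and the Esr1 expected counts were whole numbers in all 10 libraries, so the authors' counting did not split them with another mouse gene. All 55385 rows of the table are mouse Ensembl genes, so reads of the human-derived part of the transgene have no row of their own.

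Library totals ran from 29806083 to 34702571 expected counts in the KO-labelled libraries and from 34435835 to 56897822 in controls (exact two-sided permutation p = 0.0159). Tnfsf10, the targeted gene, was at 198.9, 318, 126.3, 169.3 and 80.99 CPM (depth-scaled counts, with TMM scaling) in the KO-labelled libraries 1 to 5 and at 298.2 to 373.6 CPM in controls. Replicate 2 labelled EC-TRAIL KO therefore lay within the control range, and Tnfsf10 passed edgeR's test only without it (log2 fold change -0.90 with an adjusted p of 0.425, and -1.21 with 0.0345 without that library). Pan-endothelial markers (12 of 12 tested) summed to 16600 to 18570 CPM in KO-labelled libraries and 16250 to 18700 CPM in controls. Alveolar epithelial markers (12 of 12 tested) summed to 6984 to 10150 CPM in KO-labelled libraries and 8406 to 12610 CPM in controls. Of these 12, 11 had log2 fold changes below 0 (median -0.147). Leukocyte markers (8 of 14 tested) summed to 1110 to 1602 CPM in KO-labelled libraries and 1286 to 1933 CPM in controls. Fibroblast, pericyte and smooth muscle, airway, and platelet and erythroid marker sums also overlapped between the groups. Log2 fold changes were below 0 for 9 of 10 fibroblast markers (median -0.16) and 6 of 8 leukocyte markers (median -0.054). The same held for 7 of 11 pericyte and smooth muscle, 5 of 7 airway, and 4 of 7 platelet and erythroid markers (medians -0.067, -0.063 and -0.188). Mesothelial markers summed to 13.5 to 24.9 CPM in KO-labelled libraries and 8.77 to 20.3 CPM in controls, with log2 fold changes above 0 for 4 of 4 (median 0.597), and lymphatic endothelial markers to 1741 to 1992 CPM in KO-labelled libraries and 1462 to 1908 CPM in controls, with 5 of 7 above 0 (median 0.307). No gene of these cell type lists was called, and their part in the Esr1 result was not tested beyond the covariate of other cell type markers, which holds the mesothelial but not the lymphatic markers and with which Esr1 was at 2.02 (edgeR adjusted p = 0.00901). None of these markers was at 0 in all libraries. In such bulk samples fewer cells of a type and less RNA per cell cannot be told apart. Proliferation markers summed to 249 to 1196 CPM in KO-labelled libraries and 98.8 to 176.5 CPM in controls, with no overlap. By edgeR 14 of 19 were called higher, the smallest adjusted p being 0.0432, and 0 were called in 11 of 19 alternatives, among them library size only, limma-voom and leaving out any 1 control or replicate 3 or 4 labelled EC-TRAIL KO; their median log2 fold change stayed between 1.76 and 2.34.

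Esr1, which encodes estrogen receptor alpha, was higher in KO-labelled libraries, and was the single nuclear receptor gene of the 30 tested that passed. The gene (ENSMUSG00000019768) lies on GRCm38 chromosome 10 from 4611593 to 5005614 on the plus strand. The KO-labelled libraries 1 to 5 had 9.98, 5.51, 8.04, 8.33 and 6.61 CPM, and controls 1 to 5 had 1.998, 1.48, 1.94, 2.60 and 1.66 CPM. Every KO-labelled library lay above every control, with no library between 2.60 and 5.51 CPM. The means were 7.69 ± 1.71 CPM in KO-labelled libraries and 1.94 ± 0.429 CPM in controls (SD, n = 5 each), a 3.97-fold difference and a log2 fold change of 1.99 (SE 0.196, 95% interval 1.56 to 2.42). By edgeR's quasi-likelihood fit to 17997 genes its adjusted p was 0.00488, with rank 1 by p. Permuting the library labels for Esr1 (exact, two-sided) gave p = 0.00794, the smallest that 252 assignments allow. Any gene whose groups do not overlap reaches this value. It is not adjusted for the 17997 genes or for the choice of Esr1 with its result known. The values rest on 166 to 342 counts per KO-labelled library and 56 to 120 counts per control.

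**Figure D1:**
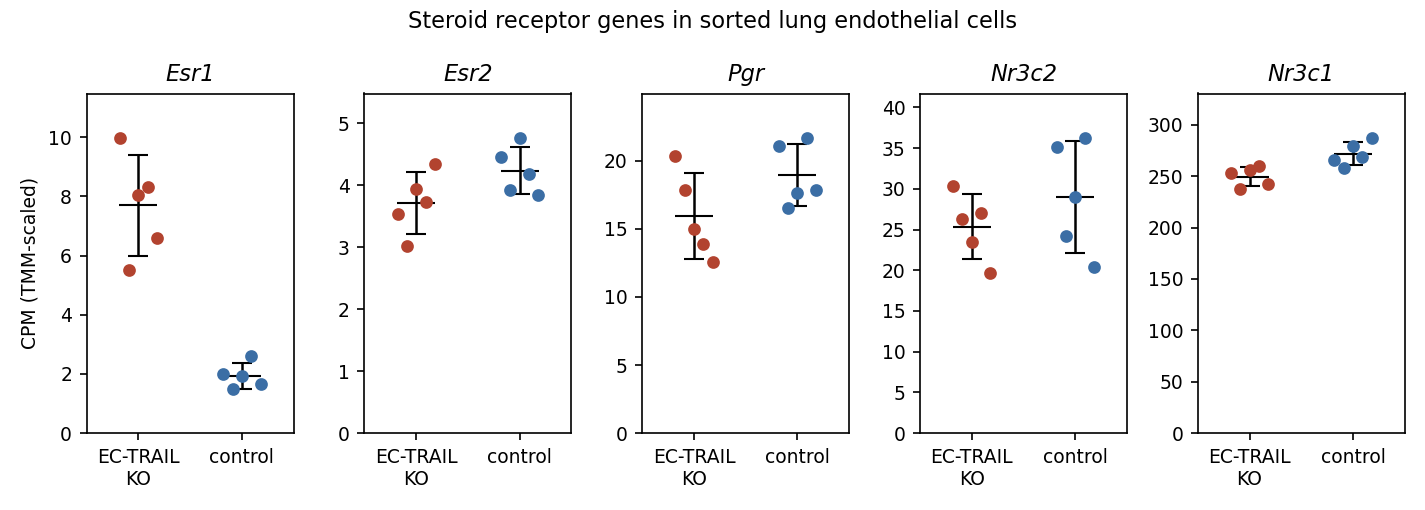
Level in CPM (vertical axis, from 0) of the 5 steroid receptor genes in the KO-labelled libraries and in controls; points are libraries in replicate order, bars the mean and SD (n = 5 each). The Esr1 points of the KO-labelled libraries (5.51 to 9.98 CPM) sit above all controls (1.48 to 2.60 CPM), while the groups overlap in the other panels.

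Of the 30 members tested, 1 was called higher and 0 lower, where 0.439% of all tested genes were called higher (79 genes) and 0.0% lower (0 genes) by edgeR, and DESeq2 called 208 higher and 3 lower. Before adjustment, p was under 0.05 for 1 member with a higher mean and 0 with a lower one, against 5.13% of all genes, 3.81% higher (686) and 1.32% lower (237). Log2 fold changes were above 0 in 13 of the 30 members and in 47.4% of all genes. Esr1 was also the single member whose groups did not overlap, against 1.38% of all tested genes with every KO-labelled library above every control and 0.261% with the reverse. The members were listed with the Esr1 result known, so these counts are a description. Per the labels, the mice of every KO-labelled library carried the Cre transgene and those of no control did, so endogenous Esr1 transcripts, transcripts of the human-derived part of the transgene that align to mouse Esr1, and a response to TRAIL deletion or to Cre activity cannot be told apart in gene-level counts. Among KO-labelled libraries, replicate 2, with the highest Tnfsf10 (318 CPM), had the lowest Esr1 (5.51 CPM), and replicate 5, with the lowest Tnfsf10 (80.99 CPM), the next lowest Esr1 (6.61 CPM). These are 5 libraries, and no relation was tested. Without replicate 2 the log2 fold change of Esr1 was 2.09 (edgeR adjusted p = 0.00272).

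Gm8748 and Cdh5 were set beside Esr1 because the Cdh5 promoter drives the transgene. Gm8748, a processed pseudogene on chromosome 8 upstream of Cdh5, was chosen with its values known. It had 27 to 76 counts in KO-labelled libraries, or 2.22, 1.39, 0.864, 0.811 and 1.29 CPM in replicates 1 to 5, and 0 counts in each control, where 0 counts allow up to 3 (edgeR adjusted p = 0.0115). The expected counts of Gm8748 were whole numbers in only 5 of the 10 libraries. Since the 5 controls had 0 counts, the fractional values may be those of all KO-labelled libraries, so its level there is uncertain. Replicate 1 was highest for both Gm8748 and Esr1, and the order of the other replicates differed between them. Cdh5, the endothelial cadherin, was at 4038 ± 147 CPM in KO-labelled libraries and 3822 ± 292.5 CPM in controls (SD, n = 5 each), at 0.08 on the log2 fold change scale (SE 0.0772; edgeR adjusted p = 0.997).

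None of the genes around Esr1 passed. The 8 other protein-coding genes within 500 kb had log2 fold changes of -0.43 to 0.34 (edgeR adjusted p = 0.997 for each). Ccdc170, 49.4 kb upstream, was at 3.10 ± 0.602 CPM in KO-labelled libraries and 3.49 ± 0.643 CPM in controls (log2 fold change -0.17). Syne1, which encodes the nuclear envelope protein nesprin-1 and ends 15.3 kb from Esr1, was at 1300 ± 291.1 CPM in KO-labelled libraries and 1257 ± 231.3 CPM in controls (SD, n = 5 each; log2 fold change 0.05). Farther away, the scaffold gene Akap12 was at 0.15, Zbtb2 at 0.10, Rmnd1 at -0.045, Armt1 at -0.0085, Mthfd1l at 0.34 and the predicted gene Gm10097 at -0.43 on the log2 fold change scale. The signs of Syne1, Akap12, Rmnd1 and Armt1 turned when single libraries were left out.

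**Figure D2:**
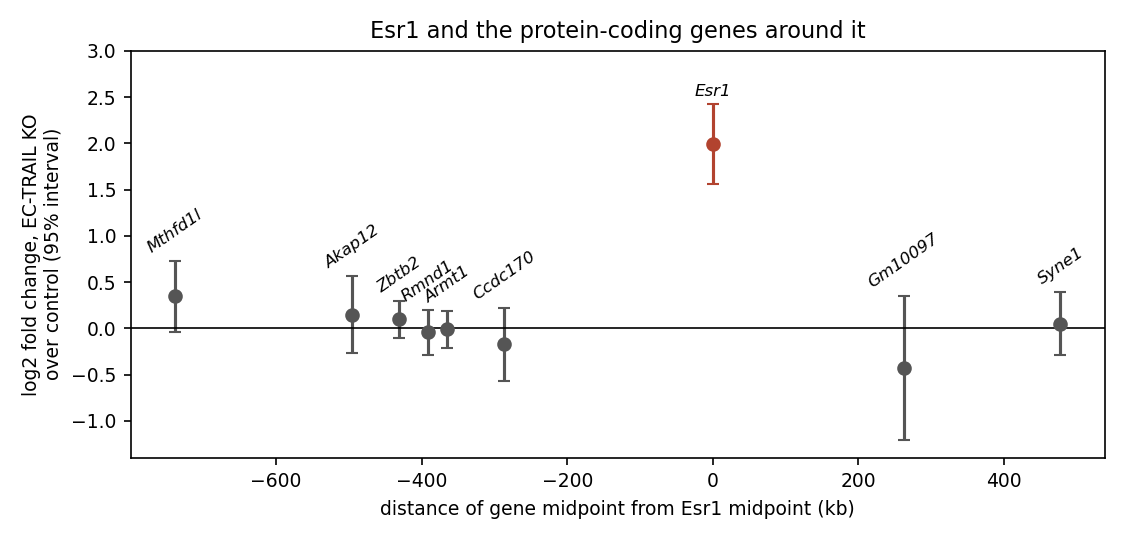
Log2 fold change of KO-labelled libraries over controls with its 95% interval (vertical axis) against the distance of each gene's midpoint from that of Esr1 in kb (horizontal axis), for Esr1 and the 8 other protein-coding genes within 500 kb of it. The interval of Esr1 runs from 1.56 to 2.42, and the points of the other genes lie between -0.43 and 0.34.

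The other steroid receptors had log2 fold changes below 0 and none passed. Esr2, which encodes estrogen receptor beta, had 3.53, 3.02, 3.95, 3.73 and 4.35 CPM in the KO-labelled libraries, and 4.45, 3.93, 4.77, 4.19 and 3.85 CPM in controls. Of the KO-labelled libraries, 3 lay below the lowest control, and the groups overlapped (log2 fold change -0.19, 95% interval -0.48 to 0.10, edgeR adjusted p = 0.997). Pgr, the progesterone receptor gene and a classic estrogen receptor target, had 20.4, 17.9, 15.01, 13.9 and 12.6 CPM in KO-labelled libraries, against 21.1, 16.5, 17.6, 21.7 and 17.8 CPM in controls. That is a log2 fold change of -0.25 (95% interval -0.54 to 0.04, edgeR adjusted p = 0.997), on the other side of 0 from Esr1. Nr3c1, the glucocorticoid receptor gene, had 253.3, 237.6, 255.5, 259.7 and 242.1 CPM in KO-labelled libraries and 265.7, 258.4, 279.3, 269 and 287.3 CPM in controls. Of the KO-labelled libraries, 4 lay below every control, but replicate 4 overlapped with control 2, and the log2 fold change was small (-0.12, 95% interval -0.25 to 0.00, edgeR adjusted p = 0.997). Nr3c2, the mineralocorticoid receptor gene, was at 25.4 ± 4.02 CPM in KO-labelled libraries and 29.0 ± 6.82 CPM in controls (SD, n = 5 each; log2 fold change -0.19).

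Across the 29 tested members other than Esr1 the log2 fold changes ran from -0.54 to 0.59, 12 above 0 and 17 below, with an edgeR adjusted p of 0.997 for each. Their median was -0.023, against -0.0085 over all genes tested. In 17 of them the 95% interval lay within 0.5 of 0 on the log2 scale, and in 25 within 1, so for 4 members a doubling or halving is inside the interval. None of the 29 intervals reached the lower end of the Esr1 interval, though no difference between genes was tested.

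**Figure D3:**
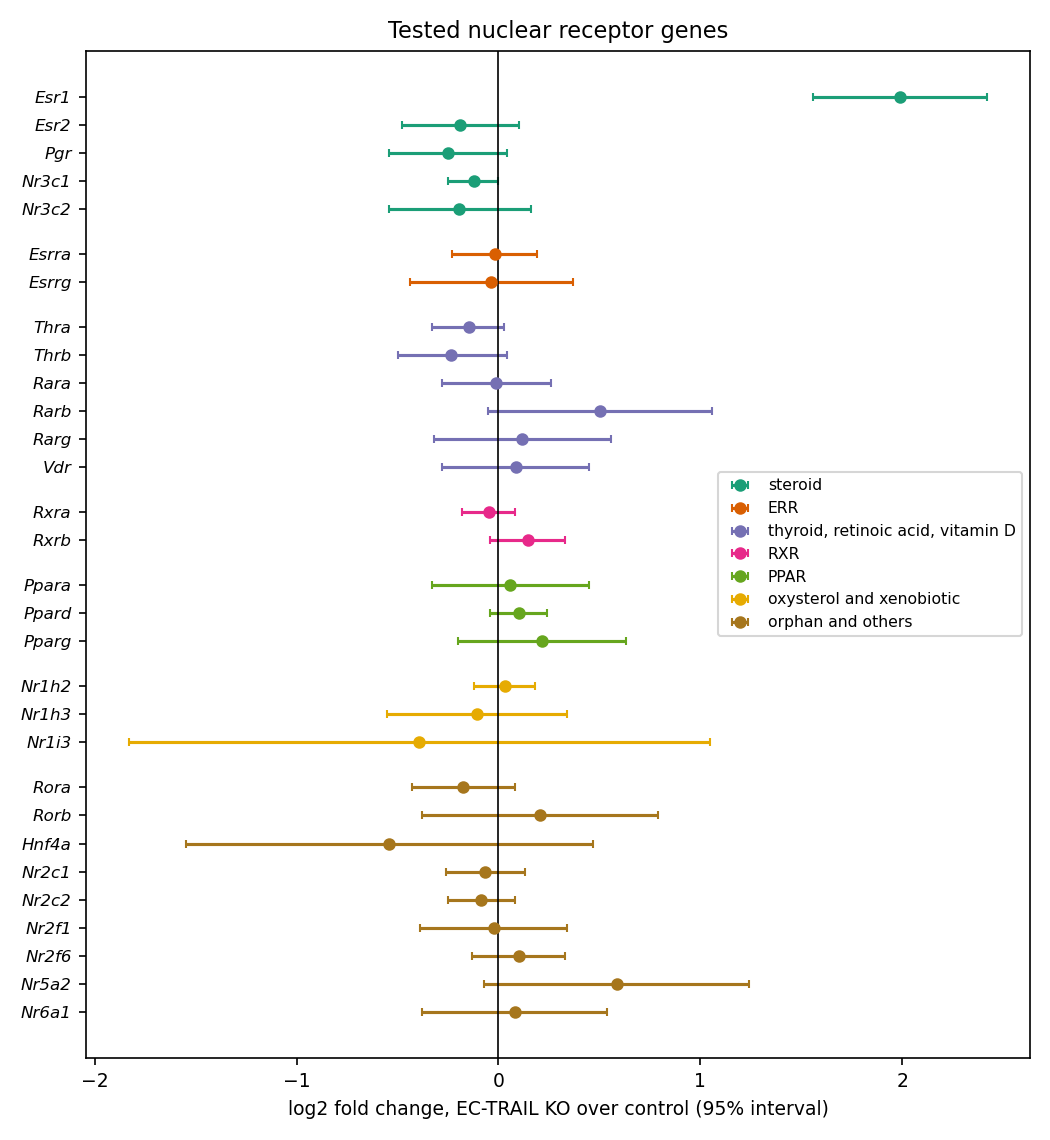
Log2 fold change of KO-labelled libraries over controls (horizontal axis) with its 95% interval for each of the 30 tested nuclear receptor genes, grouped and coloured by class. Esr1 lies at 1.99, and the other points lie between -0.54 and 0.59, the widest interval being that of Nr1i3.

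The estrogen-related receptors are orphan receptors known for driving mitochondrial genes. Esrra was at 17.4 ± 1.94 CPM in KO-labelled libraries and 17.6 ± 1.52 CPM in controls (log2 fold change -0.018), and Esrrg was at 2.39 ± 0.551 CPM in KO-labelled libraries and 2.45 ± 0.365 CPM in controls (log2 fold change -0.036; SD, n = 5 each). Both signs turned when some single libraries were left out. Their coactivator Ppargc1a, which encodes PGC-1 alpha, was at 3.27 ± 0.573 CPM in KO-labelled libraries and 4.07 ± 0.551 CPM in controls (log2 fold change -0.31, edgeR adjusted p = 0.997).

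The thyroid hormone receptor genes, whose products bind triiodothyronine, had log2 fold changes below 0 and neither passed. Thra had 152.8, 114.3, 131.6, 131.6 and 144.6 CPM in KO-labelled libraries and 157.9, 153.6, 151.3, 152.8 and 132.1 CPM in controls, with 3 KO-labelled libraries below every control (log2 fold change -0.15, 95% interval -0.33 to 0.03). Its exons share 263 bases with those of Nr1d1 on the other strand, and although the kit was stranded per the labels, the strand setting of the authors' counting is not given in the sources used here, so reads there are uncertain. Thrb was at 7.61 ± 1.29 CPM in KO-labelled libraries and 8.96 ± 0.539 CPM in controls (SD, n = 5 each; log2 fold change -0.23, 95% interval -0.50 to 0.04). Replicate 2 labelled EC-TRAIL KO was the lowest library for both genes, at 114.3 CPM for Thra and 5.51 CPM for Thrb.

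The retinoic acid receptors were represented by abundant Rara and Rarg and little Rarb. Rarb, itself a retinoic acid target, had 3.41, 3.78, 2.39, 4.15 and 1.39 CPM in KO-labelled libraries, against 2.44, 2.12, 2.16, 2.21 and 1.72 CPM in controls. The KO-labelled libraries were spread over both sides of the controls, 3 above all of them and 1 below all, so the log2 fold change of 0.50 came with a wide interval (-0.05 to 1.06, edgeR adjusted p = 0.997). Of the exon bases of Rarb 38.4% are shared with genes on the other strand, Top2b among them. The Rarb expected counts were not whole numbers in any library. Rara was at 120.5 ± 19.5 CPM in KO-labelled libraries and 121.5 ± 16.2 CPM in controls, and Rarg was at 114.9 ± 33.9 CPM in KO-labelled libraries and 105.8 ± 25.6 CPM in controls (SD, n = 5 each; log2 fold changes -0.012 and 0.12). Vdr, the vitamin D receptor gene, was at 3.19 ± 0.507 CPM in KO-labelled libraries and 2.99 ± 0.572 CPM in controls (log2 fold change 0.09).

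Retinoid X receptors are the shared dimer partners, and neither tested gene passed. Rxra ran from 91.7 to 104.8 CPM in KO-labelled libraries and from 102.1 to 104.8 CPM in controls (log2 fold change -0.047, 95% interval -0.18 to 0.08). Rxrb had 52.0, 46.9, 41.0, 38.8 and 47.3 CPM in KO-labelled libraries, against 41.9, 40.5, 43.7, 37.2 and 40.7 CPM in controls, 3 KO-labelled libraries lying above every control (log2 fold change 0.15, 95% interval -0.04 to 0.33).

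The PPARs, sensors of fatty acids, all had log2 fold changes just above 0. Ppard, the highest of the 3 per kb, was at 48.6 ± 3.28 CPM in KO-labelled libraries and 45.3 ± 1.61 CPM in controls (log2 fold change 0.10, 95% interval -0.04 to 0.24). Pparg was at 1.41 ± 0.175 CPM in KO-labelled libraries and 1.21 ± 0.234 CPM in controls (log2 fold change 0.21), and Ppara was at 1.73 ± 0.165 CPM in KO-labelled libraries and 1.66 ± 0.351 CPM in controls (log2 fold change 0.06; SD, n = 5 each).

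Of the oxysterol receptors, Nr1h2, which encodes LXR beta, was at 102.9 ± 5.45 CPM in KO-labelled libraries and 100.6 ± 8.20 CPM in controls (log2 fold change 0.03), and its sign turned when single libraries were left out. Nr1h3, which encodes LXR alpha, was at 15.3 ± 4.84 CPM in KO-labelled libraries and 16.4 ± 2.52 CPM in controls (SD, n = 5 each; log2 fold change -0.10), with 8.49 CPM in replicate 2 labelled EC-TRAIL KO and 21.0 CPM in replicate 5. The xenobiotic receptor gene Nr1i3, which encodes CAR, rested on 2 to 17 counts per KO-labelled library and 2 to 26 per control, and 74.9% of its exon bases are shared with the opposite-strand gene Tomm40l. Its values were not whole numbers in any library, so its log2 fold change of -0.39 (95% interval -1.83 to 1.05) is uncertain.

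Among the orphan and remaining receptors, Nr5a2 and Hnf4a had the largest log2 fold changes in size. Nr5a2, also known as LRH-1, had 8.90, 12.1, 4.93, 6.37 and 3.65 CPM in KO-labelled libraries, against 5.65, 6.54, 3.397, 3.64 and 4.67 CPM in controls. The highest values of both groups were in replicates 1 and 2, and the groups overlapped (log2 fold change 0.59, 95% interval -0.07 to 1.24, edgeR adjusted p = 0.997). Hnf4a, a liver and gut epithelial regulator, had 0.146, 0.265, 0.951, 0.811 and 1.46 CPM in KO-labelled libraries and 0.742, 0.867, 1.28, 1.19 and 1.21 CPM in controls, with at most 60 counts in any library (log2 fold change -0.54, 95% interval -1.55 to 0.47). Rora, a ROR-family receptor, was at 59.4 ± 9.30 CPM in KO-labelled libraries and 67.1 ± 9.26 CPM in controls (SD, n = 5 each; log2 fold change -0.17), and Rorb stayed under 1 CPM in all libraries (log2 fold change 0.21).

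The testicular receptors Nr2c1 and Nr2c2 had log2 fold changes of -0.064 and -0.086, and Nr2f1, which encodes COUP-TFI, was at 7.27 ± 1.27 CPM in KO-labelled libraries and 7.40 ± 1.65 CPM in controls (log2 fold change -0.023). Nr2f6, which encodes the COUP-TF relative EAR2, had 61.0, 53.4, 41.8, 44.0 and 43.2 CPM in KO-labelled libraries and 49.4, 47.8, 42.2, 42.5 and 44.8 CPM in controls (log2 fold change 0.10). In both groups its replicates 1 and 2 were the highest. Nr6a1, the germ cell nuclear factor gene, had a log2 fold change of 0.08 (95% interval -0.38 to 0.54). Exons of Nr2c2 and Nr2f6 share 31.2% and 54.4% of their bases with genes on the other strand. Their expected counts were not whole numbers in any library, and nor were those of Nr2f1 and Thra. Of the 38 members, 25 had whole numbers in all libraries.

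Ranked by CPM per kb of annotated exon, the family spanned a wide range of levels in both groups. Nr3c1 was highest, at 32.5 CPM per kb in KO-labelled libraries and 35.4 in controls, followed over all libraries by Thra (29.3 in KO-labelled libraries, 32.4 in controls), Nr1h2 (30.7 in KO-labelled libraries, 30.0 in controls), Rara (27.6 in KO-labelled libraries, 27.8 in controls) and Rarg (27.0 in KO-labelled libraries, 24.8 in controls). The per-library values of these 5 genes overlapped, Nr3c1 included, so their order is not separated from the spread. Rxra (18.3 in KO-labelled libraries, 18.9 in controls), Nr2f6 (16.3 in KO-labelled libraries, 15.2 in controls) and Rxrb (11.4 in KO-labelled libraries, 10.3 in controls) came next. Esr1 had rank 24 of 38 members in KO-labelled libraries and rank 28 in controls, at 0.563 CPM per kb in KO-labelled libraries and 0.142 in controls. Esr2 was above it in both groups, at 1.10 CPM per kb in KO-labelled libraries and 1.26 in controls. The exon length is the union over all annotated transcripts, 13661 bases for Esr1 and 3368 for Esr2, so levels of genes with long unused exons are too low.

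**Figure D4:**
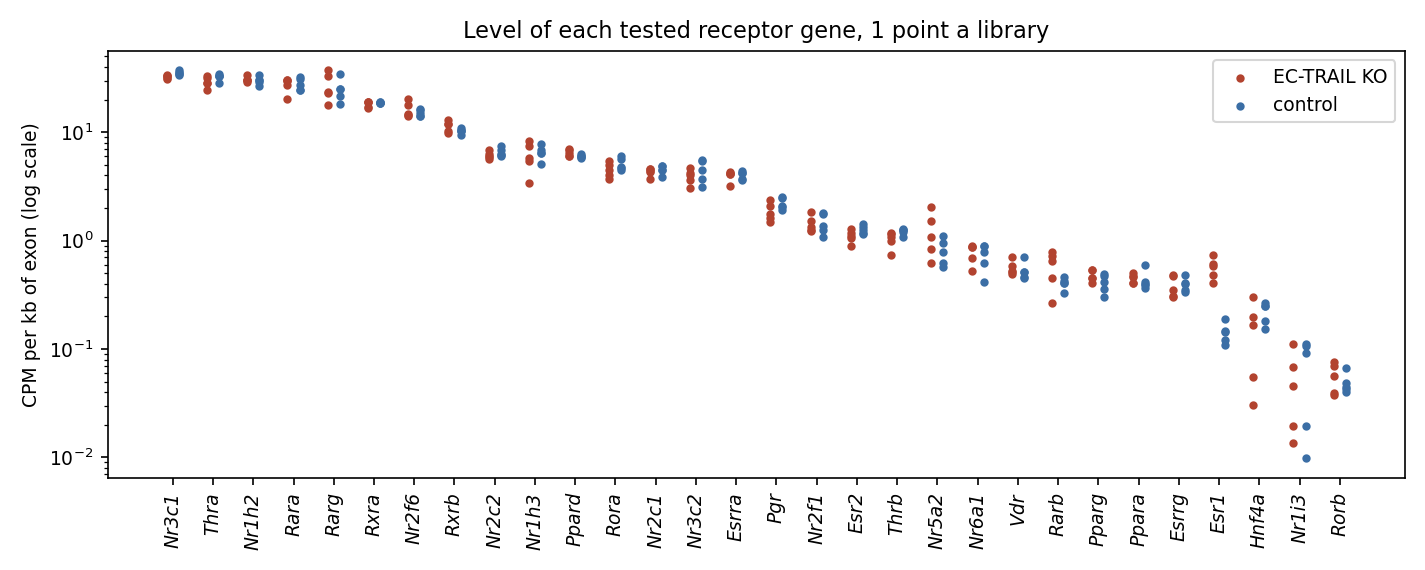
CPM per kb of annotated exon on a log scale (vertical axis) for each of the 30 tested members, ordered by their mean over all 10 libraries; each point is a library, those labelled EC-TRAIL KO to the left of controls. The groups overlap at every gene except Esr1, whose KO-labelled libraries average 0.563 and controls 0.142 CPM per kb.

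The 8 members that were not tested were at or near 0. They were Esrrb, Rxrg, the bile acid receptor gene Nr1h4, the pregnane X receptor gene Nr1i2, Nr2e1, Nr5a1 and the atypical receptors Nr0b1 and Nr0b2, which lack a zinc finger domain. None had more than 14 counts in any library, and their means ran up to 0.163 CPM in KO-labelled libraries and 0.141 CPM in controls. Nr0b1 had 0 counts in all 10 libraries, which allows levels of up to 0.051 to 0.0996 CPM, and Nr0b2 had 1 count in 1 KO-labelled library. Differences at such levels were not detectable at this depth.

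No coregulator of the receptors passed. Of 17 coactivator genes tested, 0 passed (9 log2 fold changes above 0, median 0.007), with Pprc1 at 0.27, the arginine methyltransferase Prmt1 at 0.14, Cited2 at -0.20 and Ppargc1a at -0.31. All 12 corepressor genes were tested and 0 passed (9 above 0, median 0.042), with Aes at 0.09, Tbl1xr1 at -0.088 and Zmynd11 at -0.05. The 10 receptor chaperone genes also gave 0 (3 above 0, median -0.020), with Fkbp5 at 0.44, Stip1 at 0.06, Dnajb1 at -0.16 and Fkbp4 at -0.10. The sign of Stip1 turned without control 1 and that of Fkbp5 without replicate 5 labelled EC-TRAIL KO.

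Known estrogen receptor targets were read beside Esr1. Of the 12 tested out of 15 listed, 0 passed, 6 had log2 fold changes above 0 and 6 below, and the median was 0.00. Greb1, an estrogen-induced gene, had 1.34, 5.51, 2.59, 2.89 and 2.42 CPM in KO-labelled libraries, against 1.18, 1.68, 1.60, 1.82 and 1.21 CPM in controls. Of the KO-labelled libraries, 4 were above every control and replicate 1, which had the highest Esr1, was within them (log2 fold change 0.97, SE 0.313, edgeR adjusted p = 0.501). Ccnd1, the cyclin D1 gene, had 202, 325.8, 197.3, 283.1 and 156.6 CPM in KO-labelled libraries, against 150.8, 164.7, 156.2, 174.8 and 157.9 CPM in controls (log2 fold change 0.53, SE 0.166, edgeR adjusted p = 0.443). It is also a cell cycle gene, and Mki67, a marker of proliferating cells, had 86.7, 469.2, 186.6, 256 and 135 CPM in KO-labelled libraries 1 to 5 and 24.3 to 56.1 CPM in controls. The order of the KO-labelled libraries by Mki67 was that by Greb1, and replicate 2 was highest for Mki67, Greb1 and Ccnd1 but lowest for Esr1. The part of proliferating cells in these values was not tested. Below 0, Pgr (-0.25) and Xbp1, a secretory pathway regulator (-0.13), had the smallest p.

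Targets of the other receptors gave 0 calls in each list. Of 16 glucocorticoid receptor targets (median log2 fold change 0.029, 10 above 0), Hif3a was at 0.56, Lcn2 at 0.17, Dusp1 at -0.094 and Klf9 at -0.089. Of 13 tested retinoic acid genes (median -0.085, 5 above 0), the synthesis gene Aldh1a2 was at 0.64, Rarb at 0.50 and Rdh10 at -0.095. Cyp26b1, which degrades retinoic acid, was at 193.6 CPM in replicate 4 labelled EC-TRAIL KO and at 19.6 to 59.0 CPM in the other 4, against 17.0 to 50.9 CPM in controls (log2 fold change 0.85, and -0.087 without that library). Of 8 thyroid hormone genes (median 0.046) Crym was at 0.24, Hr at 0.16, Slc16a10 at -0.20 and Dio2 at -0.21.

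Metabolic targets were likewise spread around 0. Of 18 tested PPAR targets (median -0.058, 5 above 0), Hadha was at 0.07, Slc25a20 at 0.06, Acaa2 at -0.13 and the fatty acid transporter gene Cd36 at -0.14, with 1793 ± 109.1 CPM in KO-labelled libraries and 1979 ± 145.6 CPM in controls (SD, n = 5 each). Of 12 tested LXR targets (median -0.041, 4 above 0), Arl4c was at 0.42 and the cholesterol exporter gene Abcg1 at 0.34, while Smpdl3a was at -0.18 and Apoe at -0.10 (smallest edgeR adjusted p = 0.811, for Arl4c). Abca1, the other cholesterol exporter gene, was at 102.5 ± 9.22 CPM in KO-labelled libraries and 102.9 ± 16.1 CPM in controls (SD, n = 5 each). Of 6 tested targets of the vitamin D, xenobiotic and bile acid receptors (median -0.169, 1 above 0), Por was at 0.08, Trpv6 at -0.25 and Cyp3a13 at -0.35.

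For 3 receptor targets the libraries numbered 1 and 2 were set apart from the others, a pattern chosen after its values were seen. Fkbp5, a chaperone gene induced by glucocorticoids, had 9.72, 22.9, 42.8, 34.0 and 81.1 CPM in KO-labelled libraries 1 to 5, against 14.1, 9.499, 42.1, 25.0 and 49.8 CPM in controls 1 to 5. Klf9, a target of glucocorticoid and thyroid hormone receptors, had 232.3, 228.9, 381.1, 454.4 and 447.1 CPM in KO-labelled libraries, against 305.7, 257.7, 455.9, 440.7 and 394.3 CPM in controls. Pdk4, a kinase gene induced by glucocorticoids and PPARs, had 2.66, 3.12, 8.59, 17.0 and 16.0 CPM in KO-labelled libraries, against 3.39, 4.18, 10.6, 13.8 and 8.49 CPM in controls. For each of these 3 genes the 4 libraries numbered 1 and 2 were the lowest of the 10, in both groups. The labels do not say what a shared number stands for. With log2 fold changes of 0.44 for Fkbp5, -0.089 for Klf9 and 0.23 for Pdk4, each of whose signs turned when a single library was left out, no difference between the groups passed.

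**Figure D5:**
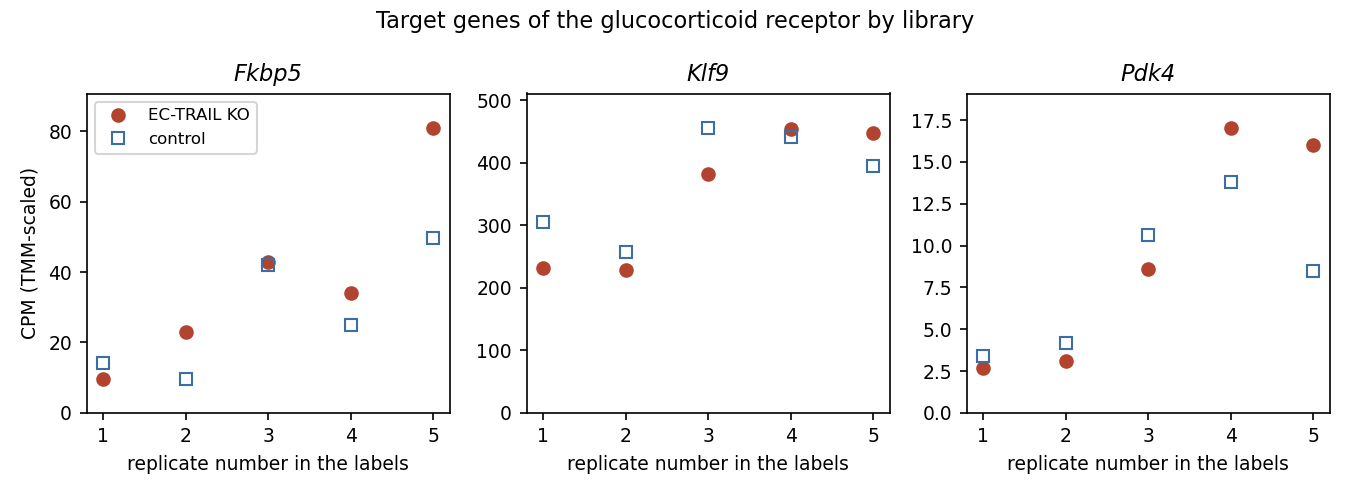
Level in CPM (vertical axis, from 0) of Fkbp5, Klf9 and Pdk4 against the replicate number in the labels (horizontal axis); filled circles are KO-labelled libraries and open squares controls. Replicates 1 and 2 of both groups are the lowest 4 libraries in each panel, for Pdk4 at 2.66 to 4.18 CPM against 8.49 to 17.0 CPM in the others.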

How the data were processed

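The authors deposited expected counts per gene, not normalized, for 10 libraries of poly-adenylated RNA; STAR 2.7.1a, RSEM 1.2.28 and GRCm38 are named in the submitters' processing notes. Which annotation release and which strand option were used is not given in the sources used here. GENCODE's GRCm38 annotation supplied names and coordinates for 55144 of 55385 identifiers. The members and lists were chosen with earlier results of these data known.

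Rounded counts were fitted with edgeR 4.0.16 (R 4.3.3). filterByExpr (minimum count 10) left 17997 genes, TMM scaled the libraries, and the quasi-likelihood F-test compared the groups with no other term, adjusted by Benjamini-Hochberg over all genes (threshold 0.05). The standard error is the log2 fold change divided by the square root of F, and intervals are 95%. Named were all members, Tnfsf10, listed members that passed or had the 2 smallest p in each direction, genes near Esr1, and some textbook targets; 2 genes under this rule are not reported here. The fit was tested on simulated data. Alternatives were RLE, library size only, DESeq2 1.42.0, limma-voom (limma 3.58.1) with and without quality weights, other filters, a replicate block, a covariate and leaving out each library. No library was a repeat of another: pairwise chi-square over degrees of freedom was at least 20.6. This value cannot tell whether libraries came from the same mouse. The closest pairs were same-numbered libraries across the groups, numbers 5, 4 and 3 (20.58, 20.79 and 20.81). Those of numbers 1 and 2 were farther apart (44.98 and 70.23). A count of 0 is read as up to 3 counts, a floor for counting error alone.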

Additional observations from a re-analysis of the deposited data

Results flagged for a closer look

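In 158 groups of 5 libraries, for the genes followed, 10 had a highest or lowest library set far apart from the other 4 (a gap of over 0.71 of the range), where chance gives about 1 in 20. Among members, Esrra was at 14.0 CPM in replicate 4 labelled EC-TRAIL KO, against 17.9 to 18.8 CPM in the other 4. In controls, Thra was at 132.1 CPM in replicate 5, below 151.3 to 157.9 CPM, and replicate 2 was high for Vdr (3.98 CPM, others 2.57 to 2.91) and for Ppara (2.28 CPM, others 1.41 to 1.60). Among other genes, Cyp26b1 was at 193.6 CPM and Cdh5 at 3784 CPM in replicates 4 and 5 labelled EC-TRAIL KO (others 19.6 to 59.0 and 4048 to 4146 CPM), and Acaa2 at 41.4 CPM in replicate 5 of that group (others 28.9 to 32.2 CPM). Among controls, Por was at 120.9 CPM in replicate 1 (others 136.6 to 139.7), Zmynd11 at 219.9 CPM in replicate 2 (others 234.6 to 239.2) and Mthfd1l at 2.60 CPM in replicate 5 (others 3.46 to 3.71).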

How the results depend on the processing

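Esr1 was called in all 19 alternatives, at log2 fold changes of 1.88 to 2.12, with adjusted p from 1.3e-18 (DESeq2) to 0.0281 (without replicate 3 labelled EC-TRAIL KO). The number of members called stayed at 1, and of coregulator and target list members at 0, in all 19. The count over all genes was not stable. It was 79 (79 higher, 0 lower), and 2 (2 higher) with library size only, limma-voom, limma-voom with quality weights and the covariate of other cell type markers. It was 211 with DESeq2 (208 higher, 3 lower), 143 without a low-count filter (141 higher, 2 lower) and 149 with the replicate block (146 higher, 3 lower). Leaving out 1 library gave 2 to 155 (2 to 154 higher, 0 to 1 lower): 155 without replicate 1 labelled EC-TRAIL KO, and 2 or 3 without its replicates 3 or 4 or without any 1 of the 5 controls. The cause was not tested.

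Same-numbered libraries of the groups deviated together for numbers 1, 3, 4 and 5 (r = 0.227, 0.21, 0.433 and 0.114), each correlating best with its own number, but not for number 2 (r = 0.0679, best with number 1). The labels give no meaning to the numbers, so they were not taken to pair the libraries. With the replicate block Nr3c1 was at -0.12 (adjusted p = 0.578), Rora at -0.18 (adjusted p = 0.312) and Esr1 at 1.99 (adjusted p = 0.00181). Tnfsf10 passed without replicate 2 labelled EC-TRAIL KO (-1.21, adjusted p = 0.0345).

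Of 81 genes followed, 20 turned sign in some alternative, 9 of them members. Abca1 (-0.0058) was at 0.0049 with limma-voom and with the replicate block, 0.0515 with quality weights and 0.0227 with the covariate. Nr2f1 was at 0.0102 with limma-voom, 0.0149 with quality weights and 0.033 with the covariate. Nr6a1 was at -0.0335 and Rara at 0.0361 with quality weights. Leaving out 1 library gave Abca1 -0.0965 to 0.0481, Nr2f1 -0.127 to 0.065, Nr6a1 -0.0663 to 0.1915, Rara -0.0572 to 0.0835, Akap12 -0.0474 to 0.2434, Armt1 -0.0322 to 0.0298, Cyp26b1 -0.0871 to 1.0809, Esrra -0.0533 to 0.0517, Esrrg -0.1334 to 0.0486, Fkbp5 -0.0328 to 0.7499. The same gave Hif3a -0.2731 to 0.8639, Klf9 -0.2022 to 0.0301, Nr1h2 -0.0078 to 0.0745, Nr1h3 -0.2457 to 0.0461, Pdk4 -0.0891 to 0.514, Rarg -0.0291 to 0.2639, Rmnd1 -0.1072 to 0.0174, Stip1 -0.0242 to 0.1268, Syne1 -0.0931 to 0.1647 and Vdr -0.0106 to 0.2132.

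Libraries labelled EC-TRAIL KO were shallower on average than controls. Depth and spread leave 4 members (Rarb, Nr1i3, Hnf4a and Nr5a2) with 95% intervals that hold a log2 change of 1 in size, and 8 members untested.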
